A study of Mus musculus with 2 samples.

Results

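Within the TMREhi library of immature γδ T cells, the 641 barcodes that carried γ chain V segment transcripts were split by the share of their transcripts that came from cytosolic ribosomal protein genes. A barcode marks 1 droplet, which as a rule holds 1 cell, and a UMI marks 1 captured transcript. Of the 1202 deposited TMREhi barcodes, 1025 had at least 500 genes detected. Of these, 698 had at least 1 UMI of a γ V segment (Tcrg-V1, Tcrg-V3 to Tcrg-V7 or Trgv2), and 641 of those had 0 UMIs of Rag1, which encodes a subunit of the receptor gene recombinase. Barcodes with under 15% of UMIs in ribosomal protein genes (Rpl and Rps genes) formed the low-ribosomal class, with 387 members, and the others the high-ribosomal class, with 254. The members were chosen by measured values, namely the ribosomal share, the γ V and Rag1 UMIs and the genes detected, so the ribosomal protein genes, the γ V segments and Rag1 are described and support nothing. Both classes are barcodes of 1 library, so there are no replicates and no test. Exact intervals (95%) are given in brackets and hold counting error only.

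The study sorted CD24+ γδ T cells from wild-type C57BL/6 fetal thymic lobes by TMRE, a dye that mitochondria take up according to their membrane potential. Lobes of embryonic day 15 spent 2 days in culture without treatment. The bright fraction, TMREhi, and the dim fraction, TMRElo, gave 1 library each with the 10x Chromium 5′ kit. The labels do not say how many embryos were pooled. The series holds 1398 barcodes, and no barcode sequence was found in both libraries. In TMRElo, where 196 barcodes were deposited, the same rule gave 91 low-ribosomal and 14 high-ribosomal barcodes, and these serve below as a second library that the split of TMREhi did not use.

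The transcripts of a cell lie in separate compartments. Long noncoding RNAs such as Malat1 and Neat1 stay in the nucleus, and mRNAs encoded by mitochondrial DNA stay inside mitochondria. Other mRNAs are translated in the cytoplasm, either on free ribosomes, as for actin and ribosomal proteins, or on ribosomes bound to the endoplasmic reticulum (ER), as for secreted and membrane proteins. The mRNAs of ribosomal proteins and of many translation factors begin with a terminal oligopyrimidine (TOP) tract and are translated under shared control.

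The low-ribosomal class made up 60.4% (56.5–64.2) of the TMREhi members and 86.7% (78.6–92.5) of the TMRElo members. Its ribosomal share had a median of 5.58% of UMIs (2.21 to 14.6), against 32.1% (15.1 to 46.1) in the high-ribosomal class. Few barcodes lay near the limit: 38 had a share of 10 to 15% and 19 had 15 to 20%. The 9 barcodes just inside, at 13 to 15%, had a median mitochondrial share of 12.5% (7.54 to 28.3), a median Malat1 share of 0.739% and a median of 2337 UMIs. The 5 just outside, at 15 to 17%, had 11.4% (8.36 to 15.5), 0.581% and 2464 UMIs.

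T cell transcripts were present in both classes. After each barcode was thinned to 1000 UMIs, a random draw that gives all barcodes the same depth, levels were given as counts per 1000000 UMIs of the class (CPM). Trdc, the δ chain constant gene, stood at 697 CPM in the low class and at 423 in the high class. Cd3e, a chain of the receptor's signalling complex, stood at 804 and 755 CPM, and Tcrg-C1, a γ chain constant gene, at 617 and 664. Thinning kept 347 of the 387 low-ribosomal and 253 of the 254 high-ribosomal barcodes, the others having too few UMIs. A gene with 1 UMI then stood at 2.88 CPM in the low class and at 3.95 in the high class. Scrublet, a program that scores barcodes for 2 cells in 1 droplet, marked 5 of the 1202 barcodes, of which 1 was a low-ribosomal and 3 were high-ribosomal members. They were kept in the comparison, and so low a count does not show that the library holds few doublets.

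The classes differed little in mitochondrial transcripts and nuclear-retained noncoding RNAs per barcode and widely in cytoplasmic mRNAs. Before thinning, the low-ribosomal barcodes held a median of 1629 UMIs (601 to 4827) and the high-ribosomal ones 8533 (946 to 27747). The lower quartile of the high class, 4942 UMIs, lay above the deepest low-ribosomal barcode. Ribosomal protein UMIs had a median of 94 and 2882 per barcode. Mitochondrial UMIs had a median of 306 per barcode (5 to 1000) in the low class and 350 (11 to 1031) in the high class. Malat1 had a median of 18 UMIs per barcode in both classes, with ranges of 0 to 101 and 0 to 92. The mitochondrial and Malat1 counts of both classes overlapped over nearly their whole ranges.

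**Figure D1:**
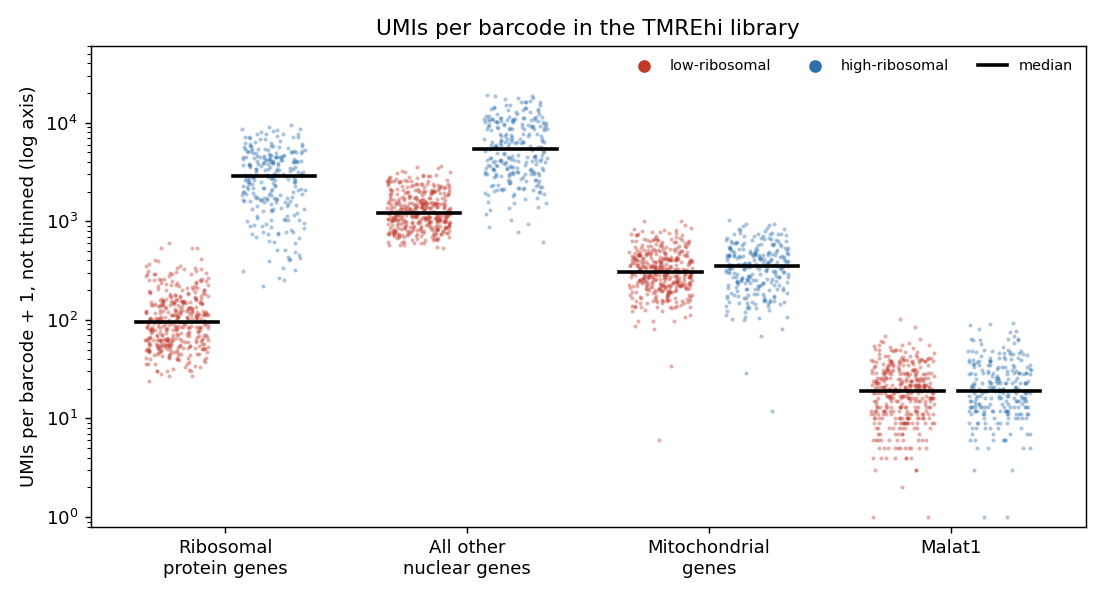
UMIs per barcode plus 1, before thinning and on a log axis, in the 387 low-ribosomal (red) and 254 high-ribosomal (blue) TMREhi barcodes, with medians as black bars; each point is 1 barcode, and Malat1 is also counted among the other nuclear genes. The medians are 94 and 2882 for ribosomal protein genes, 1219 and 5427 for other nuclear genes, 306 and 350 for mitochondrial genes, and 18 and 18 for Malat1.

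As means per barcode, the high class held 26.8-fold more ribosomal protein UMIs (119 against 3199), 17.1-fold more UMIs of a list of cytosolic protein mRNAs (43.9 against 752) and 3.47-fold more UMIs of a list of mRNAs translated at the ER (58.6 against 203). It held 1.09-fold more mitochondrial UMIs (345 against 377; 1.08–1.10). For nuclear-retained RNAs the means were 32.1 and 32.9 UMIs. Without Malat1 these were 11.4 in the low and 9.78 in the high class. A list of mRNAs, many known for introns that hold them in the nucleus, lay between, with means of 27.7 and 64.7 UMIs, 2.34-fold more in the high class (2.28–2.40). Some single genes had more UMIs per barcode in the low class although its barcodes held fewer UMIs in all. Neat1, the scaffold RNA of nuclear paraspeckles, averaged 0.388 against 0.220 UMIs, a ratio of 1.76 (1.29–2.43). Macf1, a very long mRNA for a linker of actin and microtubules, averaged 1.28 against 0.803 UMIs (1.60, 1.35–1.89). Ptprc, which encodes the membrane phosphatase CD45, averaged 5.84 against 4.69 (1.25, 1.16–1.34). By contrast Tmsb4x, which encodes the small actin-binding protein thymosin β4, averaged 1.81 against 59.2, and Rplp0, a ribosomal stalk protein gene of the split itself, 1.74 against 57.4. Per-barcode counts depend on capture as well as on the transcripts present, and these were not told apart.

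As shares of UMIs, the mitochondrial and nuclear transcripts separated the classes. The mitochondrial share had a median of 18.2% (0.767 to 46.3) in the low class and 3.50% (1.16 to 15.8) in the high class. It lay above the other class's median in 386 of 387 low-ribosomal barcodes and in 0 of 254 high-ribosomal ones. A limit of 10% mitochondrial UMIs, as is often set for single-cell data, would keep 9 low-ribosomal barcodes (2.33%) and 241 high-ribosomal ones (94.9%). The Malat1 share had a median of 1.04% in the low and 0.228% in the high class, with 370 of 387 low-ribosomal barcodes (95.6%) above the high class's median and 11 of 254 high-ribosomal ones (4.33%) above the low class's. Shares sum to a whole, so a lower ribosomal share by itself raises the other shares.

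**Figure D2:**
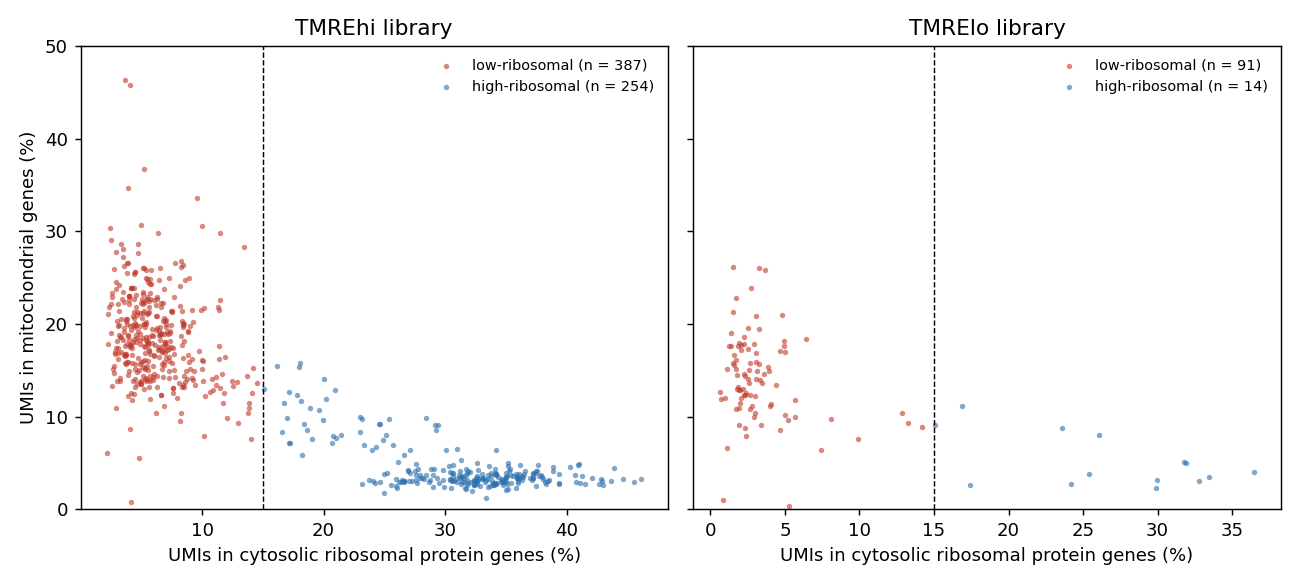
Share of UMIs in mitochondrial genes (vertical, %) against the share in cytosolic ribosomal protein genes (horizontal, %) for each barcode of the TMREhi (left) and TMRElo (right) libraries; the dashed line is the 15% limit. The low-ribosomal TMREhi barcodes have a median mitochondrial share of 18.2% and the high-ribosomal ones 3.50%, with a thin band of barcodes between them.

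Across the 3422 genes whose mean over both classes reached 50 CPM, ribosomal protein genes left out, 1297 (37.9%) were over 2-fold higher in the low class after thinning and 572 (16.7%) over 2-fold lower. In any size 64.1% were higher and 35.9% lower, and the median log2 ratio, low over high with 5 CPM added to both values, was 0.59. With CPM taken over UMIs outside ribosomal protein genes alone the median was 0.16, and the split of genes past 2-fold changed from 69.4% to 50.9% higher. Outside both ribosomal and mitochondrial genes the median was 0.36, with 30.9% of 3409 genes over 2-fold higher and 19.9% over 2-fold lower, and with 59.5% higher and 40.5% lower in any size. Lists are read below against these medians. The filter takes a gene that is high in either class, and low members are left out of the counts of members. Of the 86 ribosomal protein genes, 81 passed it and all 81 were lower, with a median log2 ratio of −2.31 (−2.98 for Rps27l to −1.04 for Rpl4), as the split requires.

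Nuclear-retained noncoding RNAs were higher in the low-ribosomal class. They held 1.79% of its thinned UMIs and 0.420% of those of the high class, a ratio of 4.27 (4.0–4.56). Of 21 RNAs listed, 17 had a row in the matrix, 15 had a UMI and 7 passed the filter; all 7 were over 2-fold higher, with a median log2 ratio of 2.37 (2.15 outside ribosomal and mitochondrial genes). Malat1 (chr19:5795690-5802672, minus strand, GRCm38), an abundant RNA of nuclear speckles, stood at 11957 CPM in the low class and 3107 in the high class, a ratio of 3.85 (3.57–4.16). Neat1 (chr19:5824708-5845478, minus strand), its neighbour, had 70 and 7 UMIs, or 202 and 27.7 CPM, a ratio of 7.29 (3.36–18.8). The list without Malat1 gave a ratio of 5.47 (4.83–6.23). Most of the RNAs that passed the filter are long, and they are set beside protein-coding genes of like length below.

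Of the other members, Xist, Kcnq1ot1 and Gm26917 had ratios between those of Malat1 and Neat1. Xist (chrX:103460366-103483254, minus strand), which coats the inactive X chromosome of female cells, stood at 2741 and 526 CPM, a ratio of 5.21 (4.34–6.30). Kcnq1ot1 (chr7:143203458-143296549, minus strand), an antisense RNA that silences an imprinted cluster, stood at 896 and 142 CPM (6.30, 4.45–9.16). Gm26917, a noncoding gene, stood at 1744 and 277 CPM (6.30, 4.91–8.19). Tug1 had 35 and 10 UMIs and Mir142hg, the host transcript of a microRNA of blood cells, 36 and 10, with ratios of 2.55 (1.24–5.78) and 2.62 (1.28–5.93). The ratios of Tug1 and Mir142hg were lower than those of the other 5, with intervals that held Malat1's ratio. Of the RNAs under the filter, Pvt1 had 26 UMIs against 1, Jpx 13 against 3, Mir17hg 12 against 6, Ftx 7 against 1 and Airn 7 against 0. Miat, Mir155hg and Tsix had 2 UMIs each in the low class and 0 in the high class, and Meg3 and Mirg had 0 in both.

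Members of a list of mRNAs, many known for introns that hold them in the nucleus and many encoding RNA-binding or splicing proteins, were also higher. Of 33 listed, 32 passed the filter, with 30 higher (20 over 2-fold) and 2 lower, and a median log2 ratio of 1.28. Its largest log2 ratio, 3.18, was that of Macf1, the very long mRNA of a cytoskeletal linker. Luc7l2, a splicing factor gene, stood at 830 and 217 CPM (ratio 3.82, 2.85–5.19). Ogt, the enzyme that adds N-acetylglucosamine to proteins, stood at 669 and 162 CPM (4.13, 2.95–5.90). Ddx5, an RNA helicase gene, differed least of these, at 896 and 763 CPM (1.17, 0.979–1.41). Whether these UMIs came from spliced or intron-holding transcripts is not recorded in the counts.

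All 13 mRNAs of mitochondrial DNA were over 2-fold higher in the low class. They held 18.7% and 4.52% of thinned UMIs, a ratio of 4.13 (4.05–4.22), with a median log2 ratio of 2.05. The mt-Co1 gene (chrM:5328-6872, plus strand), for the catalytic subunit of cytochrome c oxidase, stood at 31677 and 7644 CPM (4.14, 3.95–4.35). The ATP synthase genes mt-Atp6 and mt-Atp8, whose reading frames overlap, had ratios of 4.57 (4.34–4.82) and 4.92 (4.57–5.30). Among complex I genes the ratio was lowest for mt-Nd4, at 3.21 (2.84–3.64), and highest for mt-Nd6, at 6.79 (4.71–10.1), which rests on 298 and 32 UMIs. mt-Nd6 is the only mRNA gene on the other strand of this genome. The makeup of the mitochondrial transcripts was similar, with mt-Co1 at 17% and 16.9% of them in the low and high class and mt-Co3 at 15.8% and 15.6%. mt-Cytb, for a complex III subunit, took 6.62% and 8.01%.

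The nuclear-retained and mitochondrial ratios were smaller where the classes were closer in depth. With only barcodes of 1000 to 5000 UMIs, 347 low and 63 high, the median depths were 1760 and 3592 UMIs, so the depths still differed. There the nuclear-retained ratio was 2.54 (2.30–2.80) and the mitochondrial ratio 2.73 (2.64–2.81). Shallow high-ribosomal barcodes also lay nearer the 15% limit. Median depths were 2967 UMIs at a ribosomal share of 15 to 20% and 4474 at 20 to 25%, with 7227 to 13327 in the bins above. Depth and ribosomal share were therefore not told apart. With barcodes of at least 1000 genes the nuclear-retained ratio was 3.72 and the mitochondrial ratio 4.08. Among barcodes with at most 10% mitochondrial UMIs the mitochondrial ratio was 2.10 (1.92–2.30), the nuclear-retained ratio 5.68 (4.71–6.80) and the ratio of the cytosolic list described next 0.499 (0.433–0.571), on 6 low-ribosomal barcodes. That limit selects barcodes by the mitochondrial share itself, so a smaller mitochondrial ratio there follows from the selection.

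Translation factor and other TOP mRNAs outside the ribosomal protein genes were lower in the low class. They held 1.17% and 3.44% of thinned UMIs, 2.94-fold more in the high class (2.84–3.06). Of 26 members, 22 were lower (16 over 2-fold) and 4 higher, with a median log2 ratio of −1.40. Eef1a1, the factor that brings tRNAs to the ribosome, stood at 2579 and 6877 CPM (2.67-fold more in the high class, 2.46–2.89). Fau, whose product holds a ribosomal protein fused to a ubiquitin-like part, was 4.95-fold (4.4–5.59) higher in the high class. Tpt1, a growth-related TOP mRNA, stood at 896 and 4913 CPM. Eef2, the translocation factor, stood at 798 and 885 CPM (1.11-fold more in the high class, 0.926–1.33). Pabpc1, the poly(A)-binding protein, stood at 1009 and 798 CPM, higher in the low class (1.26, 1.06–1.51). Its log2 ratio was −0.11 outside ribosomal protein genes and 0.11 outside ribosomal and mitochondrial genes.

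Abundant mRNAs of cytosolic proteins were lower in the low class to a like extent. They held 2.26% and 6.94% of UMIs, 3.07-fold more in the high class (2.99–3.16). Of 49 rows, 45 passed the filter, with 44 lower (33 over 2-fold) and a median log2 ratio of −1.40. Tmsb10 and Tmsb4x, which encode thymosins that bind actin monomers, stood at 1844 against 10032 and at 1009 against 6621 CPM, 5.44-fold (4.99–5.94) and 6.56-fold (5.85–7.39) higher in the high class. Gapdh, a glycolytic enzyme, was 4.71-fold (3.97–5.61) and Actb, β-actin, 1.96-fold (1.80–2.14) higher there. Lcp1, which encodes an actin-bundling protein of blood cells, was the only one of these 45 higher in the low class, at 853 and 498 CPM.

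The nuclear genes for parts of mitochondria went with the cytosolic mRNAs and not with the mRNAs of mitochondrial DNA. Of 75 genes of the respiratory chain and ATP synthase that passed the filter, 73 were lower in the low class (59 over 2-fold), with a median log2 ratio of −1.60 and 2.99-fold more UMIs in the high class (2.87–3.12). Cox8a, a subunit of the same complex as mt-Co1, stood at 490 and 1170 CPM. Atp5e, a small ATP synthase subunit, stood at 150 and 1012 CPM (6.75-fold more in the high class, 4.99–9.28), whereas mt-Atp6 of that enzyme was 4.57-fold higher in the low class. Of 39 mitochondrial ribosomal protein genes, 37 were lower (27 over 2-fold), with a median of −1.45. Mrpl33, for instance, stood at 115 and 253 CPM.

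mRNAs translated at the ER differed from cytosolic mRNAs. They held 3.25% and 2.32% of UMIs, a ratio of 1.40 (1.36–1.45), and of 60 members 43 were higher (19 over 2-fold) and 17 lower (4 over 2-fold), with a median log2 ratio of 0.76, near the 0.59 of all genes. The size of this difference depended on the scaling, with a ratio of 1.20 (1.16–1.24) outside ribosomal and mitochondrial genes and of 1.03 (0.998–1.06) outside ribosomal protein genes alone. Ptprc stood at 3363 and 474 CPM, a ratio of 7.09 (5.87–8.63). Without Ptprc the list's ratio was 1.28 (1.24–1.33). Hspa5 and Hsp90b1, chaperones of the ER lumen, had ratios of 2.82 (2.35–3.41) and 2.30 (1.97–2.70), and Laptm5, a lysosomal membrane protein of blood cells, 2.09 (1.73–2.54). Some members went the other way. Sec61b and Sec61g, small subunits of the channel that takes proteins into the ER, stood at 127 against 862 and 112 against 794 CPM, 6.80-fold (4.90–9.62) and 7.07-fold (5.0–10.2) higher in the high class. B2m, the light chain of MHC class I, stood at 911 and 957 CPM.

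**Figure D3:**
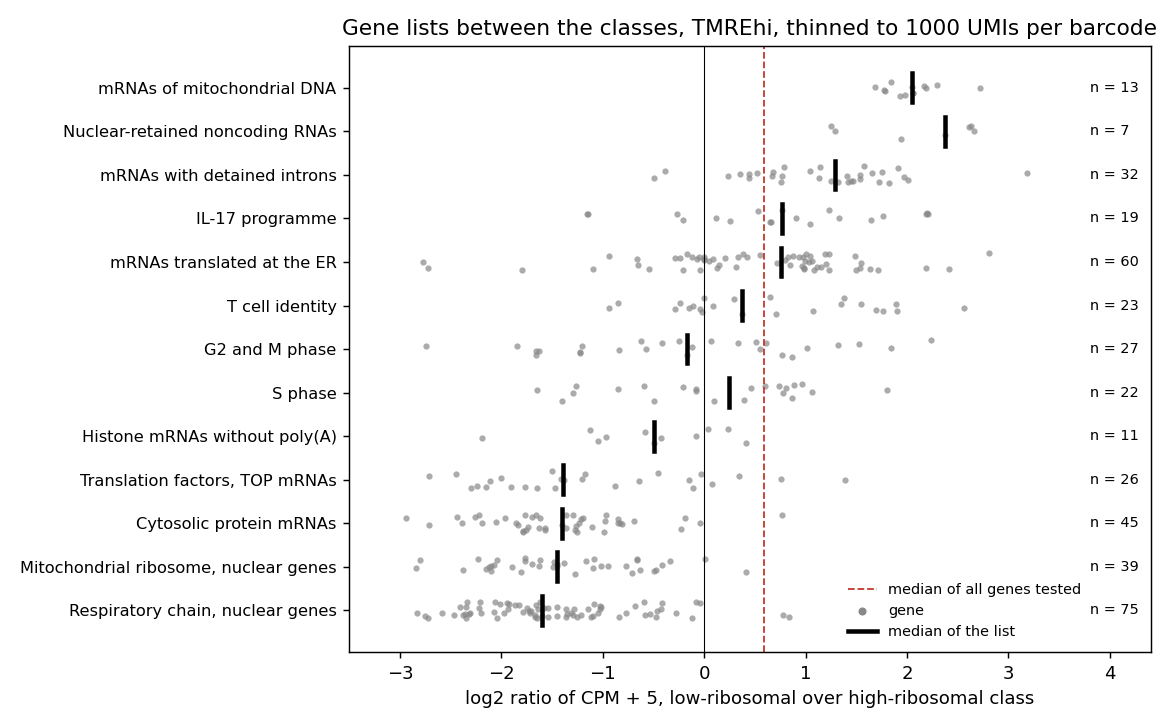
Log2 ratio of CPM, low-ribosomal over high-ribosomal class, after thinning and with 5 CPM added, for each list member with a mean of at least 50 CPM (grey points), with the list's median (black bar) and the median of all 3422 genes (red dashed line, 0.59). Medians run from 2.37 for nuclear-retained RNAs and 2.05 for mRNAs of mitochondrial DNA to −1.40 for cytosolic protein mRNAs and −1.60 for nuclear genes of the respiratory chain.

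The size and direction of the difference went with transcript length. Over 3362 protein-coding genes outside the ribosomal protein genes, ordered by their longest annotated transcript and grouped in quintiles, the median log2 ratio was −1.08 in the shortest quintile (419 to 1916 bases), −0.04, 0.63 and 1.13 in the next ones and 1.58 in the longest (5962 to 123179 bases). The share of genes over 2-fold higher in the low class went from 1.93% in the shortest quintile to 81.3% in the longest, and the share over 2-fold lower from 55.0% to 0.743%. Outside ribosomal and mitochondrial genes the end values were −1.31 and 1.40. Quintiles of genomic span gave −0.85 to 1.5 and quintiles of exon number −0.49 to 1.43. With the median length of a gene's annotated transcripts in place of the longest, the gradient was weaker, with medians of −0.29, 0.17, 0.30, 0.89 and 1.31. These properties go together across genes, and genes are not replicates.

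The most extreme genes showed this order. At a mean of 100 CPM or more, the 10 largest ratios were those of Sptan1, Zbtb20, Zfp652, Macf1, Itgb3, Esyt2, Nfat5, Rnf111, Cd226 and Tnrc6b, whose longest transcripts had from 4494 bases (Cd226) to 26901 (Zbtb20). Sptan1, the spectrin of the membrane skeleton, had 111 UMIs against 6 (13.5, 6.00–37.5). Macf1 (chr4:123349633-123684360, minus strand), with a longest transcript of 23495 bases, stood at 755 and 79.1 CPM (9.55, 6.06–15.9). Tnrc6b, a partner of Argonaute proteins in microRNA silencing, stood at 470 and 59.3 CPM (7.92, 4.66–14.5). Among the 10 smallest were those of S100a13, Nme2, Uqcrq, Mrpl42, Sec61g, Ndufc1, Cdk1, Sec61b and Atp5e, whose longest transcripts had from 715 bases (S100a13) to 4375 (Cdk1). Nme2, a nucleoside diphosphate kinase, had 28 UMIs against 165 (8.08-fold more in the high class, 5.39–12.5), and Uqcrq, of complex III, 27 against 148 (7.52-fold, 4.96–11.8).

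**Figure D4:**
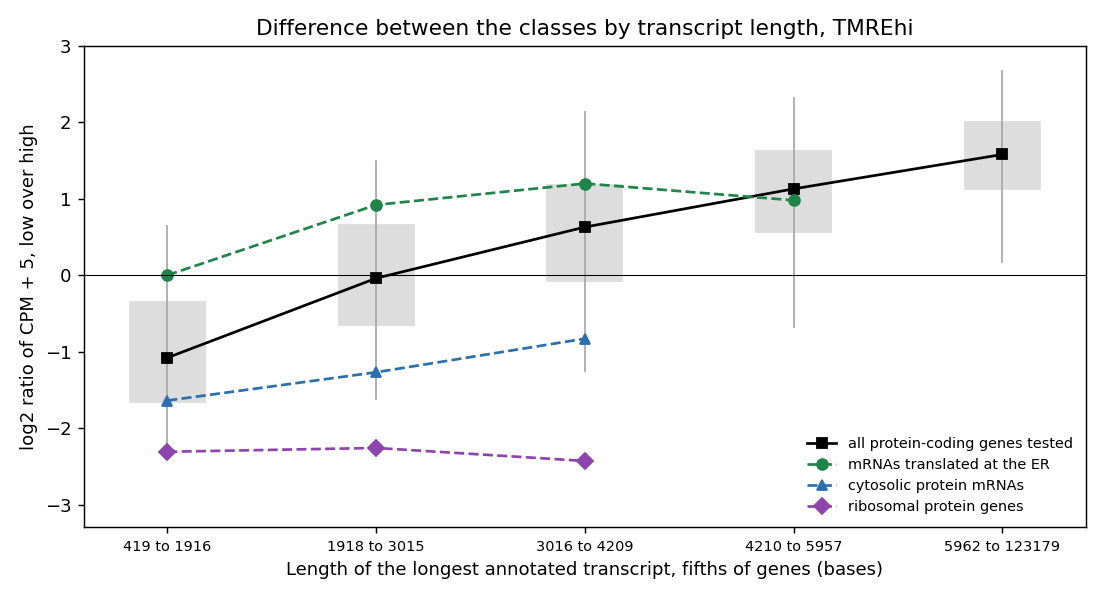
Log2 ratio, low-ribosomal over high-ribosomal class, by quintiles of the longest annotated transcript (bases) for protein-coding genes tested (black squares, median; grey box, quartiles of the genes; grey line, 5th to 95th percentile) and for list members (coloured symbols, medians of groups of at least 3 genes). The median of all genes goes from −1.08 to 1.58, with ER-translated mRNAs above it in the 3 shorter quintiles and cytosolic mRNAs below it.

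The lists were also set apart among genes of like transcript length. In the shortest quintile the median log2 ratio was 0.00 for 19 ER-translated mRNAs and −1.64 for 24 cytosolic mRNAs, with −1.08 for all genes. In the second quintile the values were 0.92 (24 genes), −1.27 (15 genes) and −0.04, and in the third 1.20 (11 genes), −0.83 (6 genes) and 0.63. In the fourth quintile the ER-translated median was 0.98 (5 genes) against 1.13 for all genes. In the longest it was 1.23 (1 gene) against 1.58. Over all quintiles, 44 of 60 ER-translated members lay above their own quintile's median, and 40 of 45 cytosolic, 22 of 26 translation and 58 of 75 respiratory chain members lay below it. With the median in place of the longest transcript length, 39 of 60 lay above and 43 of 45, 21 of 26 and 71 of 75 below. Of the 32 mRNAs of the list with introns that hold them in the nucleus, 22 lay above their quintile's median by the longest transcript. By the median transcript length 25 did. In the longest quintile, by the longest transcript, 3 of 7 did. Ribosomal protein genes, used by the split, had medians of −2.31 in the shortest quintile (64 genes) and −2.26 in the second (13 genes). Of the nuclear-retained RNAs, Xist, Kcnq1ot1, Malat1, Neat1 and Tug1 (6719 to 93092 bases) had log2 ratios of 1.25 (Tug1) to 2.66 (Neat1). Protein-coding genes of the longest quintile had a median of 1.58 and 5th and 95th percentiles of 0.17 and 2.67. Gm26917 (3329 bases) had 2.63, with a 95th percentile of 2.14 in the third quintile. Mir142hg (269 bases) had 1.29, with 0.64 in the shortest quintile. The part of length in these ratios was not tested.

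The same transcripts varied with the ribosomal share within each class. Across bins of that share, Malat1 went from 19000 CPM in barcodes under 3% to 7821 at 8 to 10%, 11686 at 10 to 15%, 7316 at 15 to 20% and 2282 at 35% or more. The mitochondrial mRNAs went from 206318 to 35310 CPM, and the cytosolic mRNAs from 13955 CPM to 77875 at 25 to 30% and 65986 at 35% or more. ER-translated mRNAs had their highest value, 40128 CPM, at 8 to 10%, with 29500 under 3% and 23789 at 35% or more. Depth moved with these bins, from a median of 1458 UMIs under 3% to 2967 at 15 to 20%, 13327 at 25 to 30%, 11866 at 30 to 35% and 7227 at 35% or more, and its part in the trend was not tested. Within the low class Spearman's rho of the ribosomal share was −0.24 with the mitochondrial and −0.35 with the Malat1 share (387 barcodes), and within the high class −0.37 and −0.41 (254 barcodes). With the UMIs per barcode rho was 0.19 in the low and 0.09 in the high class. These shares have a common denominator, and the values describe barcodes of 1 library.

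**Figure D5:**
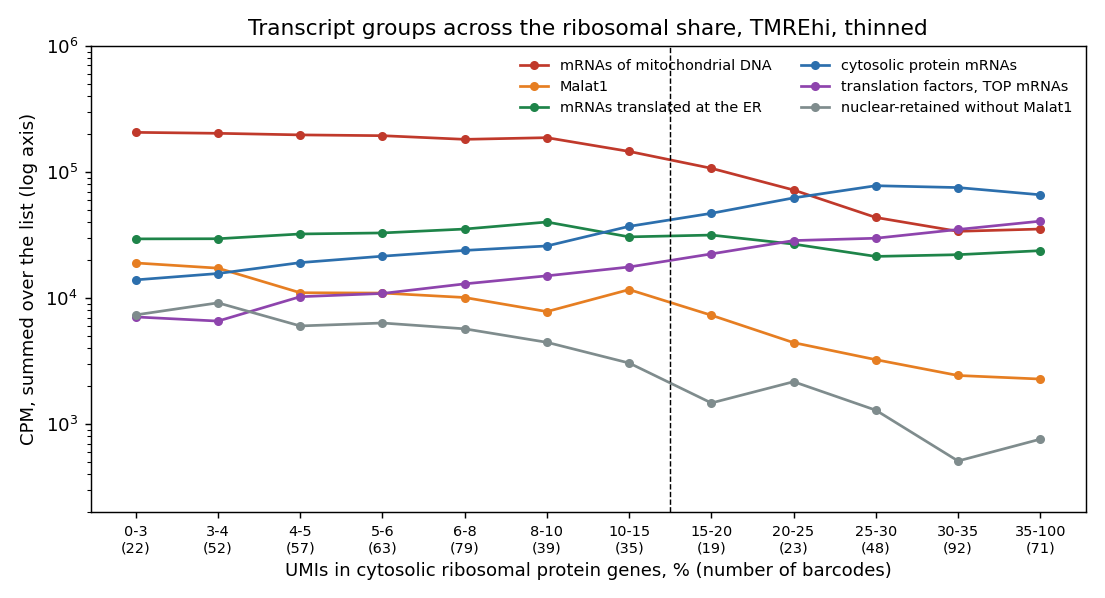
CPM summed over each group of transcripts (log axis) in TMREhi barcodes binned by the share of UMIs in ribosomal protein genes, after thinning, with the number of barcodes per bin in brackets; the dashed line is the 15% limit. Mitochondrial mRNAs go from 206318 to 35310 CPM and cytosolic protein mRNAs from 13955 to 65986 CPM between the first and last bin.

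Genes of T cell identity were found in both classes, with a median log2 ratio of 0.37 over 23 members (15 higher, 8 lower) beside the 0.59 of all genes. Outside ribosomal and mitochondrial genes it was 0.15, with 13 higher and 10 lower. Cd3g stood at 885 and 1047 CPM and Cd3d at 824 and 1008, while Trdc, given above, had a ratio of 1.65 (1.31–2.09). Among the members that were higher in the low class, Ets1, a transcription factor of lymphocytes, stood at 744 and 198 CPM, Bcl11b, which commits cells to the T lineage, at 594 and 229, and Il7r, the interleukin 7 receptor, at 879 and 296. The IL-17 programme had 15 of 19 members higher, a median of 0.77 and a ratio of 2.00 (1.81–2.20). Of all genes tested, 64.1% were higher, and their median was 0.59. Outside ribosomal and mitochondrial genes the programme's ratio fell to 1.71 and its median to 0.58, beside 0.36 for all genes. With that scaling the programme kept 14 genes on the higher side and 5 on the lower. Its gene Rora, a nuclear receptor, stood at 254 and 51.4 CPM, Blk, a kinase needed for these cells, at 184 and 87.0, Maf, a factor they require, at 343 and 217, and Ramp1, a receptor-modifying protein, at 109 and 249. The cytotoxic programme had a ratio of 1.14 (1.06–1.22), which was 0.972 outside ribosomal and mitochondrial genes. Of its 12 members that passed the filter, 9 were higher in the low class (4 over 2-fold) and 3 lower. Their median log2 ratio was 0.39, beside the 0.59 of all genes. With the scaling outside ribosomal and mitochondrial genes 7 were higher and 5 lower. Gzma, a granzyme, at 1553 and 1621 CPM, and Ccl5, a chemokine, at 222 and 921, were among the 3 lower members.

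Genes of cell division were mixed. The S phase list had 12 members higher and 10 lower (ratio 0.961, 0.871–1.06) and the G2 and M list 12 higher and 15 lower (0.890, 0.833–0.951). Mki67, the long mRNA of Ki-67, stood at 749 and 296 CPM and Top2a, topoisomerase II, at 758 and 494, whereas Cdk1, the kinase of mitosis, stood at 23.1 and 182 and Hmgb2, a chromatin protein, at 703 and 1640. Replication-dependent histone mRNAs, which carry no poly(A) tail and come from near-identical copies that counting can split, held 2.01-fold more UMIs in the high class (1.81–2.23). The p53 and cell death list, of 21 genes, had a ratio of 1.43 (1.17–1.74), which was 1.22 outside ribosomal and mitochondrial genes. Among its 4 genes that passed the filter, Bcl2l11, which encodes the death protein BIM, had 39 UMIs against 4 (7.11, 2.56–27.4). Bcl2l11 passed the filter only by its level in the low class. Trp53inp1, a p53 target, had 81 against 20 (2.95, 1.79–5.09), and Bax, a pore-forming protein of apoptosis, 48 against 54. Immediate early genes, which dissociation of tissue can induce, had a ratio of 1.13 (0.974–1.32), which was 0.971 outside ribosomal and mitochondrial genes.

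V segment use was compared because the classes could hold different γδ subsets, although a γ V UMI was a condition of the rule. After thinning, 310 of 347 low-ribosomal and 182 of 253 high-ribosomal barcodes kept a γ V UMI. Tcrg-V5, the segment of epidermal γδ T cells, led in 11% (7.72–15.0) of low and 3.30% (1.22–7.04) of high barcodes. Tcrg-V4 led in 23.2% (18.6–28.3) and 14.8% (10.0–20.8), and Trgv2, a near copy of Tcrg-V1 and Tcrg-V3 that may share reads with them, in 31.9% (26.8–37.4) and 40.7% (33.5–48.2). Tcrg-V6, of the fetal subset that makes IL-17, led in 14.5% (10.8–18.9) and 17.6% (12.3–23.9). Of barcodes with a δ segment, Trdv4 led in 49.4% (41.2–57.5) of 154 and 51.0% (40.7–61.3) of 98. Before thinning the leading shares were 10.1% and 3.15% for Tcrg-V5, 23% and 7.87% for Tcrg-V4, and 46.5% and 36.3% for Trdv4. Those of Trgv2 were then 34.9% (30.1–39.9) and 55.9% (49.6–62.1), further apart than after thinning, and those of Trdv2-2 31.6% and 46.4%.

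The differences between the classes were also present within barcodes led by 1 segment. The nuclear-retained ratio was 4.70 (3.91–5.68) among Tcrg-V1, 3.72 (3.02–4.63) among Tcrg-V4, 3.77 (3.20–4.45) among Tcrg-V6 and 4.42 (4.03–4.85) among Trgv2 barcodes. The cytosolic list had 3.54-fold, 2.88-fold, 2.63-fold and 2.84-fold more UMIs in the high class in the same order. Among barcodes with a Mki67 UMI the nuclear-retained ratio was 5.16 (4.61–5.78) and among those without one 3.75 (3.46–4.07).

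Markers of other cell types held few UMIs in both classes. As shares of thinned UMIs their ratios, low over high, were 2.07 (1.41–3.10) for myeloid and 2.85 (1.77–4.78) for stromal and epithelial markers. Those of mast cell and granulocyte, B cell and erythroid markers were 2.62 (1.90–3.67), 0.647 (0.427–0.976) and 0.729 (0.322–1.65). Of 14 myeloid markers, 11 had a thinned UMI, with 105 UMIs in the low and 37 in the high class. Before thinning, 158 of the 272 myeloid UMIs of the low class lay in 1 barcode, whereas no high-ribosomal barcode had over 10. The complement genes C1qa, C1qb and C1qc, which mark macrophages, and Lyz2, a lysozyme gene of myeloid cells, had 10, 6, 16 and 13 thinned UMIs in the low class and 0 in the high class. Stromal and epithelial markers had 86 and 22 UMIs, with 0 to 6 per barcode in both classes before thinning, and Col1a2, Col3a1, Foxn1, Krt5 and Krt8 at 0 in both. B cell markers had 47 and 53 UMIs, nearly all of Ighm, with Cd79a and Pax5 at 0. Mast cell and granulocyte markers had 176 and 49 UMIs, all of Kit and Cpa3, with Mpo, Elane and Fcer1a at 0, and the globins were at 0. Before thinning, 22.2% of low-ribosomal and 70.5% of high-ribosomal barcodes had a UMI of a myeloid marker, and 18.9% and 69.7% one of a B cell marker. For stromal and epithelial markers the shares were 33.6% and 48.4%, with the high class the deeper one. The part of these markers in the differences was not tested. Genes of αβ lineage thymocytes had a ratio of 1.10 (0.990–1.22), which was 0.941 outside ribosomal and mitochondrial genes, with 0 to 25 UMIs per low-ribosomal and 0 to 141 per high-ribosomal barcode before thinning. Since the low class is shallower, a barcode without a Rag1 UMI there is weaker evidence that its cell lacked Rag1.

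The TMRElo library, in which 55 low-ribosomal and 14 high-ribosomal barcodes could be thinned, showed most of the differences in the same direction. Of genes over 2-fold different in TMREhi and with a mean of at least 200 CPM in TMRElo, 269 of 293 (91.8%) were again higher and 164 of 166 (98.8%) again lower in the low class. In TMREhi 64.1% of all genes tested were higher in the low class and 35.9% lower, and the shares over all TMRElo genes are not given here. The TMRElo classes were cut by the same ribosomal share, which by itself moves other genes. A gene with 1 UMI stood at 18.2 CPM in the low and at 71.4 CPM in the high class of TMRElo. Malat1 stood at 31218 and 6429 CPM, mt-Co1 at 27109 and 8071, Eef1a1 at 1473 and 5857 and Tmsb4x at 1018 and 11857. The nuclear-retained ratio was 5.18 (4.27–6.35), the mitochondrial ratio 2.77 (2.57–2.99), the translation ratio 0.235 (0.205–0.269) and the cytosolic ratio 0.214 (0.195–0.235). For ER-translated mRNAs it was 0.952 (0.851–1.07), where TMREhi had 1.40. By transcript length the UMIs of the shortest quintile had a ratio of 0.302 (0.287–0.317) and those of the longest 3.01 (2.80–3.25), against 0.424 (0.418–0.430) and 2.66 (2.61–2.71) in TMREhi. Malat1 per barcode had a median of 36 UMIs in the low and 31 in the high class of TMRElo, and mitochondrial UMIs of 147 and 220.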

How the data were processed

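Per the labels, 2 single-cell libraries were made with the 10x Chromium 5′ kit. The authors deposited matrices of UMI counts, made with Cell Ranger 3.0.2 per the file headers. Cell Ranger 3.0 and mm10 stand in the submitters' processing notes. Annotation and cell calling are not stated there. Members and lists were chosen with earlier results of these data known. The named genes are Malat1, Neat1, Rplp0 and mt-Co1, detected members of the nuclear and mitochondrial lists, up to 6 abundant members of each other list, the 10 largest and 10 smallest ratios, and V segments with at least 20 UMIs, with some not reported here; examples beyond these, such as Lcp1, Ramp1 and Sec61b, were chosen after their values were seen. Barcodes were thinned to 1000 UMIs without replacement (seed 1). Summed UMIs gave CPM (counts per 1000000 UMIs of the class) and ratios with exact conditional binomial intervals. Shares have Clopper-Pearson intervals. Thinned UMIs numbered 347000 (low) and 253000 (high), and 3 UMIs stood at 8.65 and 11.9 CPM. Coordinates and transcript lengths came from GENCODE vM21 (GRCm38), matched by identifier for 30934 of 31053 genes. The script for ratios was tested on simulated data with known folds. Scanpy 1.11.5, scipy 1.17.1, numpy 2.4.6, pandas 2.3.3, matplotlib 3.10.9 and Python 3.11.15 were used.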

Additional observations from a re-analysis of the deposited data

Results flagged for a closer look

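The list of cytotoxic γδ T cell genes stood apart between the libraries. In TMREhi it had a ratio, low over high, of 1.14, or 0.972 outside ribosomal and mitochondrial genes, so its direction there depends on the scaling, and in TMRElo a ratio of 0.218. The difference between the libraries was not tested. In TMRElo the high class had 223 UMIs of the list, of which 72.6% lay in 3 of its 14 barcodes. Xcl1, a chemokine gene, gave 69 of these UMIs, all in 3 barcodes, and Ccl5, another chemokine gene, 47, with 72.3% in 3 barcodes. The low class of TMRElo had 191 UMIs of the list in 40 of 55 barcodes.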

How the results depend on the processing

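The values below are the share of members in the low-ribosomal class (%), list ratios low over high, or counts of genes past 2-fold, each to be read against 60.4%, 4.27 (nuclear-retained), 4.13 (mitochondrial), 0.340 (translation), 0.325 (cytosolic), 1.40 (ER-translated), 1297 higher and 572 lower genes (1869 in all). None of these 5 list ratios changed direction under the settings below, but that of ER-translated mRNAs came close to 1. Outside ribosomal and mitochondrial genes the ratios of 3 other lists turned, the cytotoxic from 1.14 to 0.972, the immediate early from 1.13 to 0.971 and the αβ thymocyte from 1.10 to 0.941. A limit of 10% ribosomal UMIs gave 54.4%, 3.29 (nuclear-retained), 3.31 (mitochondrial) and 1.35 (ER-translated). A limit of 20% gave 4.63 (mitochondrial) and 1.49 (ER-translated). With barcodes of 10% to 20% left out the ratios were 4.59 (nuclear-retained), 4.86 (mitochondrial), 0.312 (translation), 0.294 (cytosolic) and 1.49 (ER-translated). Barcodes of at least 1000 genes gave 43.5%, 3.72 (nuclear-retained), 0.394 (translation), 0.356 (cytosolic) and 1.25 (ER-translated). Without the conditions on γ V and Rag1 UMIs the values were 71.5%, 3.89 (mitochondrial), 0.354 (translation) and 1.16 (ER-translated). A limit of at most 10% mitochondrial UMIs selects by the mitochondrial share itself and left 6 low-ribosomal barcodes after thinning. It gave a share of 3.60% and 5.68 (nuclear-retained), 2.10 (mitochondrial), 0.424 (translation), 0.499 (cytosolic), 1.05 (ER-translated) and 2147 genes higher. Without Scrublet doublets the mitochondrial ratio was 4.25. Thinning to 700 UMIs gave 0.323 (translation) and 0.311 (cytosolic). Thinning to 2000 UMIs gave 3.97 (nuclear-retained), 0.394 (translation), 0.389 (cytosolic) and 1.22 (ER-translated). Without thinning the ratios were 5.29 (nuclear-retained), 4.98 (mitochondrial) and 1.57 (ER-translated). A second random draw gave 4.23 (mitochondrial) and 0.316 (cytosolic).

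Outside ribosomal protein genes the ratios were 3.14 (nuclear-retained), 3.03 (mitochondrial), 0.249 (translation), 0.239 (cytosolic) and 1.03 (ER-translated), with 836 genes higher and 805 lower. Outside ribosomal and mitochondrial genes they were 3.66 (nuclear-retained), 0.291 (translation), 0.279 (cytosolic) and 1.20 (ER-translated). A mean of at least 20 CPM gave 3282 genes past 2-fold, 2508 of them higher (76.4%). A mean of at least 100 CPM gave 955, with 584 higher and 371 lower, and no filter 5133, with 4090 higher (79.7%) and 1043 lower. The number of genes tested sets these counts. Further settings were chosen after seeing the data. Barcodes of 1000 to 5000 UMIs gave 2.54 (nuclear-retained), 2.73 (mitochondrial), 0.375 (translation), 0.417 (cytosolic) and 1.09 (ER-translated). Thinning to 500 UMIs outside ribosomal and mitochondrial genes gave 3.70 (nuclear-retained), 0.287 (translation), 0.266 (cytosolic) and 1.29 (ER-translated). Without the most abundant member of each list the ratios were 5.47 (nuclear-retained), 0.349 (cytosolic) and 1.28 (ER-translated). Except where stated, the cause was not tested. Intervals hold counting error only, so a small move can pass them. No paired analysis was possible because each group has 1 library.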
